A study of Rattus norvegicus with 28 samples.

Results

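The miRNAs of the imprinted Dlk1-Dio3 region were examined in the rat hippocampus 24 h after traumatic brain injury (TBI), with and without an antidepressant. Members were all array probes for rat miRNAs of this region, chosen by miRNA number whatever the arm or copy. They came to 74 of the 758 rat miRNAs on the array, carried by 170 probes. Adult male Sprague-Dawley rats of 350 to 400 g formed 5 groups. Sham rats (2 analysed here) were prepared without the injury. TBI rats (3) received a parasagittal fluid percussion injury. TBI+Imipramine, TBI+Prozac and TBI+Zoloft rats (3 each) were injured in the same way and given the named drug 1 h later. Imipramine is a tricyclic antidepressant, and Prozac (fluoxetine) and Zoloft (sertraline) are selective serotonin reuptake inhibitors. The comparisons ask whether the injury, or a drug given after it, was accompanied by a different level of these miRNAs. One miRNA array and one gene expression array came from each of the 14 rats. The tissue was whole hippocampus, so fewer cells of a type and less RNA per cell cannot be told apart.

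The Dlk1-Dio3 region is imprinted. Its protein-coding genes Dlk1, Rtl1 and Dio3 are expressed from the paternal chromosome, while its non-coding transcripts Meg3, Rian and Mirg and the miRNAs are expressed from the maternal one. The miRNAs lie in a group near Rtl1, of which miR-127, miR-136 and miR-434 are antisense to Rtl1, and in a larger group that starts at miR-379 and ends at miR-410. They are known for high levels in brain and placenta. In neurons the miR-379 to miR-410 group is transcribed with activity through Mef2 factors, and miR-134, miR-329 and miR-381 of this group are known for a role in dendrite growth.

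Of the 74 members, 72 were found in the RefSeq miRNA table of the rat (build GRCr8), all on chromosome 6 between 134314744 and 134579828. Among these, miR-299b-3p, miR-299b-5p and miR-409b lay on the minus strand and the others on the plus strand. miR-127-5p and miR-136-5p are named only. The mature sequences below are those of the members on which the results turn, written 5′ to 3′ with the seed (bases 2 to 8) in capitals. The first pair belongs to the group near Rtl1, and the others lie from miR-379 on. miR-154-5p, miR-379-5p and miR-369-5p had the lowest differences between TBI+Imipramine and TBI, and miR-410-3p, miR-300-3p and miR-381-3p were also lower in that comparison. miR-494-3p went the other way. With the first scaling, each array's own percentile, no member passed the test threshold in that comparison. Under the common-probe scaling described below, miR-376a-3p and miR-494-3p missed it, and the others listed passed it. Those calls depended on single arrays and on slide.
rno-miR-127-3p: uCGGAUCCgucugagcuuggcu
rno-miR-434-3p: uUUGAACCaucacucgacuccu
rno-miR-379-5p: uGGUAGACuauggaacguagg
rno-miR-154-5p: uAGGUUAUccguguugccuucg
rno-miR-369-5p: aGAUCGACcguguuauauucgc
rno-miR-410-3p: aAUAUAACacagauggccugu
rno-miR-300-3p: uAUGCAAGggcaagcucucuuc
rno-miR-381-3p: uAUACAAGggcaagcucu
rno-miR-376a-3p: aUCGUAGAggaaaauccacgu
rno-miR-494-3p: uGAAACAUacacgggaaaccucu

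The seeds, which guide a miRNA to its targets, differed among the members. The 72 sequences held 67 seeds, and 5 seeds were shared by a pair of members, such as AUACAAG of miR-381-3p and miR-539-3p. The 26 measured members with a sequence had 26 different seeds.

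A probe was kept for testing when it was above background on all 3 arrays of at least 1 injured group, which left 265 of 1806 probes and 151 of 758 miRNAs. Of the cluster, 28 miRNAs (47 probes) were kept. A member can thus have passed through the group in which it was high, and the 28 do not stand for all 74. Of these, 8 of 18 lay before miR-379 in the genome and 20 of 56 lay from miR-379 on. The brightest probe was above background on all 12 injured arrays for 14 members. Of the 46 members not kept, 32 were above background on no injured array, including both arms of miR-134, which is known to repress Limk1 and Pum2. miR-434-5p was just inside detection with 8 of 12 arrays, and miR-409a-5p and miR-433-3p were just outside it with 7. miR-485-5p, known to repress the synaptic vesicle protein Sv2a, was above background on 3 arrays.

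The miRNA arrays differed in depth. Between 187 and 406 probes and between 14 and 41 members were above background on an injured array, with the fewest members on TBI+Imipramine replicates 1 and 3 (14 and 17). The Sham scanner files held 0 and 1 probes above background, so Sham levels were taken from the authors' table of processed values and set only against values of that table. Dim probes in that table departed from the scanner values by up to 2.67 on the log2 scale, most often on TBI+Imipramine replicate 3, where 57 of 265 kept probes were off by over 0.1 after centring. The injured arrays lay on 2 slides, with the 3 TBI arrays and TBI+Prozac replicate 1 on slide 1 and the other 8 drug arrays on slide 2, so slide and TBI+Imipramine against TBI cannot be told apart except through TBI+Prozac.

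With each array scaled to its own 75th percentile of probes above background, the cluster was lower in TBI+Imipramine than in TBI, with a median log2 difference of -0.653 over the 28 members, but so was the array as a whole, with a median of -0.444 over all kept probes. No member was called by limma after Benjamini-Hochberg adjustment over all 265 probes (adjusted p under 0.05), where 0.377% of probes were called. At an unadjusted p under 0.05 there were 2 member probes, beside 4 of all 265 probes. The methods' t-test called 0 members, beside 0.377% of all probes. Of the 28 members, 27 had a difference below 0 and 23 lay below the all-probe median. miR-127-3p, known to repress Rtl1, had log2 levels of 0.54, 1.09 and 1.05 in TBI and -0.47, 0.80 and -0.07 in TBI+Imipramine. Its difference was -0.81 ± 0.49 (SE, n = 3 per group) on the log2 scale, with an adjusted p of 0.655 by limma, and the groups overlapped. In this fit limma used a common variance for all kept probes, so the SE of 0.49 is shared by them and is not that miRNA's own. miR-154-5p had the lowest difference, at -1.03 ± 0.49 (SE), also with an adjusted p of 0.655 by limma.

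The percentile of an array depends on which probes pass the background there. A second scaling, planned as an alternative, used the same 168 probes on every array, those above background on all 12 injured arrays. All levels from here to the comparison with Sham are log2 processed signal relative to the 75th percentile of those probes. On this scale the all-probe median difference was -0.174 for TBI+Imipramine, and that of the cluster was -0.418. Among the members, 20 of 28 miRNAs and 26 of 47 probes were called lower by limma, and none was called higher. A difference below 0, called or not, was found for 27 of the 28. By detection, the 20 comprised 9 of the 14 members above background on all 3 TBI+Imipramine arrays, beside 20.2% of the 168 probes so detected, 3 of 3 above background on 2 of those arrays, beside 13.8% of 29 probes, and 8 of 11 above background on 1 of them, beside 22.1% of 68 probes. The last 11 passed the filter through other groups, and their values on the other TBI+Imipramine arrays were not above background. Over all probes 21.1% were called, 20% were called lower, and 31.8% of the 151 kept miRNAs had a called probe. The calls depended on single arrays and on slide, with 0 members called when TBI replicate 3 or TBI+Imipramine replicate 2 was left out, and 0 with slide as a block.

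**Figure D1:**
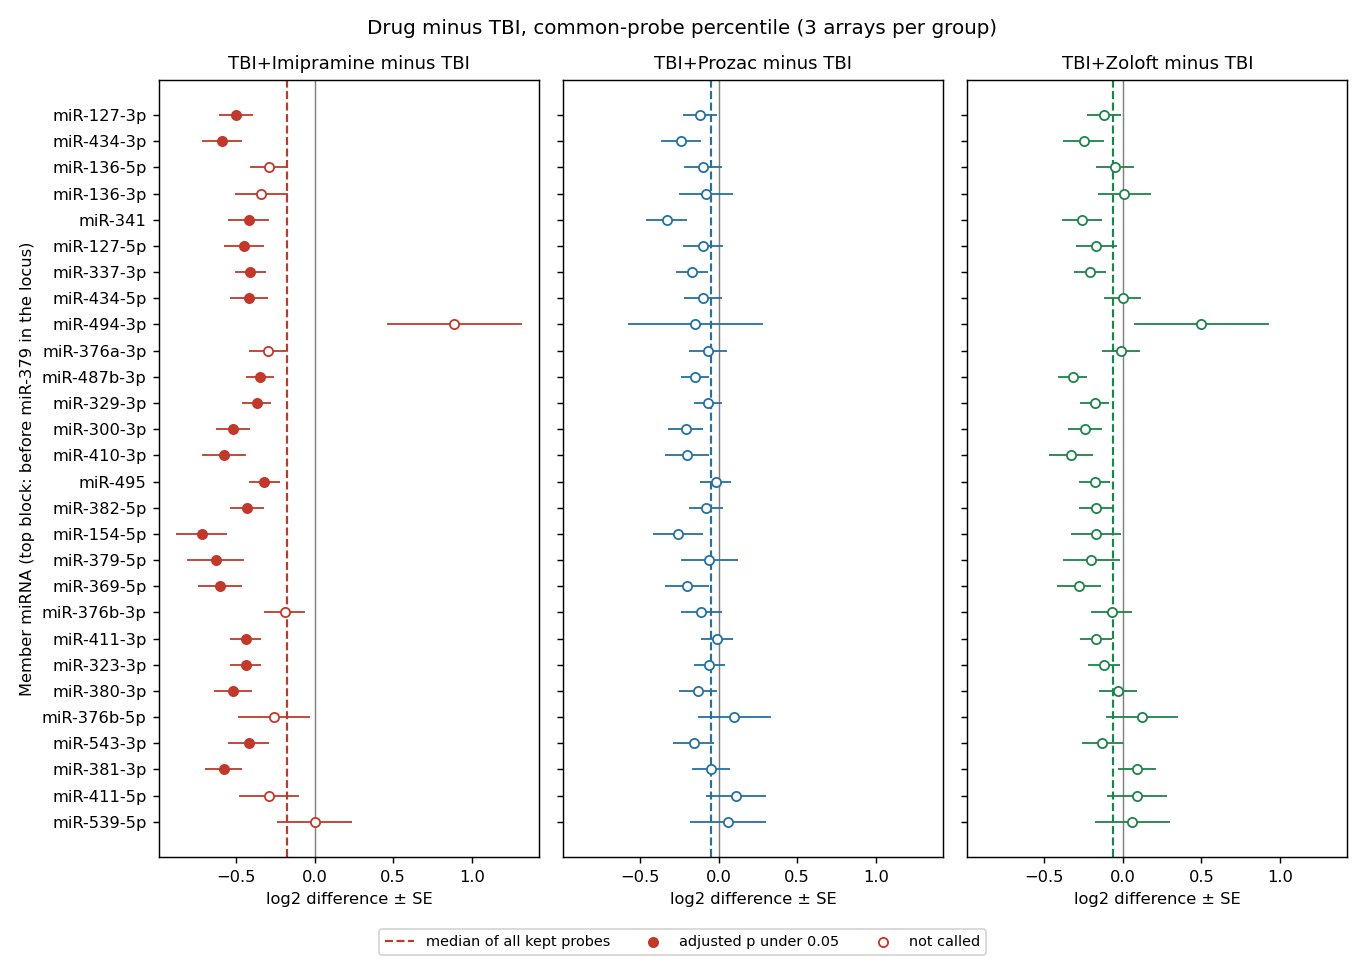
Log2 difference ± SE of each of the 28 kept members between a drug group and TBI (3 arrays per group, common-probe scaling), with filled points for an adjusted p under 0.05 by limma and a dashed line at the median of all 265 kept probes. In the TBI+Imipramine panel 20 members are filled and all of these lie left of 0, miR-494-3p lies right of 0, and no point is filled in the TBI+Prozac and TBI+Zoloft panels.

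Near Rtl1, 6 of 8 members were called lower. The 8 had a median difference of -0.42 and a range from -0.59 to -0.29. miR-127-3p had levels of -0.06, -0.10 and 0.15 in TBI and of -0.69, -0.56 and -0.25 in TBI+Imipramine. It was -0.14, -0.06 and -0.16 in TBI+Prozac and -0.10, -0.14 and -0.14 in TBI+Zoloft. All 3 TBI+Imipramine arrays were thus below the other 9 arrays, and the difference from TBI was -0.50 ± 0.11 (SE, adjusted p = 0.0191 by limma), or 1.41-fold lower. miR-434-3p, also antisense to Rtl1, had levels of 0.02, -0.01 and 0.10 in TBI and of -0.68, -0.70 and -0.27 in TBI+Imipramine. Its difference was -0.59 ± 0.13 (SE, adjusted p = 0.0191 by limma), or 1.5-fold lower. The TBI+Imipramine arrays lay below all TBI arrays, but TBI+Prozac replicates 2 and 3 were at -0.33 and -0.31, below TBI+Imipramine replicate 3.

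The other arms of both hairpins went the same way, each above background on 1 of 3 TBI+Imipramine arrays. miR-127-5p fell by 0.45 and miR-434-5p fell by 0.42 on the log2 scale (adjusted p of 0.0427 and 0.039 by limma), the latter with TBI+Imipramine replicate 1 at the floor of -5.10. miR-341 fell by 0.42, and miR-337-3p, above background on 1 TBI+Imipramine array, fell by 0.41. Both arms of miR-136 missed the threshold, with differences of -0.29 for miR-136-5p and -0.34 for miR-136-3p, and their groups overlapped. miR-136-5p was at -0.93, -0.94 and -0.61 in TBI and at -1.20, -1.23 and -0.91 in TBI+Imipramine.

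From miR-379 to miR-410, 14 of 20 members were called lower. The 20 had a median difference of -0.43 and a range from -0.72 to 0.89. miR-379-5p, at the start of this group, had levels of -3.0, -2.93 and -2.66 in TBI and of -3.88, -3.53 and -3.07 in TBI+Imipramine, with a difference of -0.63 ± 0.18 (SE, adjusted p = 0.039 by limma). miR-410-3p, at its end, had levels of -2.19, -2.55 and -2.16 in TBI and of -3.11, -2.90 and -2.64 in TBI+Imipramine, with a difference of -0.58 ± 0.14 (SE, adjusted p = 0.0191 by limma). In both, every TBI+Imipramine array was below every TBI array.

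miR-154-5p had the lowest difference on this scale too. Like miR-379-5p and miR-369-5p, it was above background on 2 of 3 TBI+Imipramine arrays. It was at -2.65, -2.68 and -2.59 in TBI, at -3.81, -3.22 and -3.05 in TBI+Imipramine, at -2.77, -2.93 and -3.0 in TBI+Prozac and at -2.77, -2.92 and -2.75 in TBI+Zoloft. Its difference from TBI in TBI+Imipramine was -0.72 ± 0.16 (SE, adjusted p = 0.0191 by limma), or 1.65-fold lower, and all 3 arrays were below the other 9. miR-369-5p fell by 0.60, from levels of -2.76, -2.90 and -2.88 to -3.60, -3.57 and -3.16.

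Among the members known for dendrite growth, miR-329-3p fell by 0.37 and miR-381-3p fell by 0.58 on the log2 scale, and miR-134 was not above background. miR-381-3p had levels of -4.21, -4.14 and -4.11 in TBI and of -4.94, -4.62 and -4.64 in TBI+Imipramine, where 1 of the 3 arrays was above background. miR-300-3p fell by 0.52, miR-487b-3p fell by 0.35, and miR-495, reported to target Bdnf, fell by 0.32. The remaining members called were miR-382-5p, miR-411-3p, miR-323-3p, miR-380-3p and miR-543-3p, with differences from -0.52 to -0.42. All of these but miR-382-5p were above background on 1 TBI+Imipramine array.

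**Figure D2:**
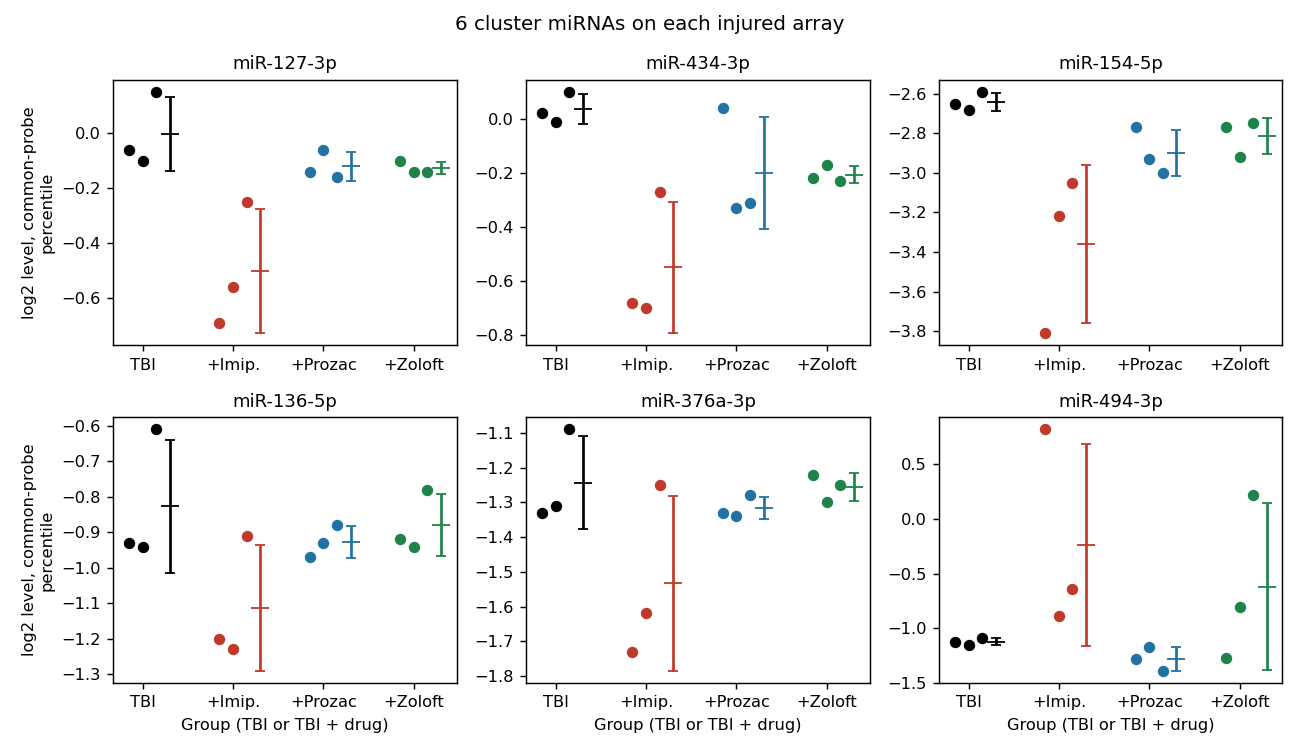
Log2 level (common-probe scaling) of 6 members on each of the 12 injured arrays, with the group mean ± SD beside the points. The TBI+Imipramine arrays are below all TBI arrays for miR-127-3p, miR-434-3p and miR-154-5p, overlap them for miR-136-5p and miR-376a-3p, and are above them for miR-494-3p.

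Of the 8 members not called, 6 had differences between -0.34 and -0.19. These included miR-376a-3p, whose seed is known to be altered by RNA editing in brain. It was at -1.33, -1.31 and -1.09 in TBI and at -1.73, -1.62 and -1.25 in TBI+Imipramine, with a difference of -0.30 ± 0.12 (SE, adjusted p = 0.114 by limma). miR-539-5p was at 0.000 with an SE of 0.24.

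miR-494-3p stood apart. It was at -1.13, -1.15 and -1.09 in TBI, at 0.82, -0.89 and -0.64 in TBI+Imipramine, at -1.28, -1.17 and -1.39 in TBI+Prozac and at -1.27, -0.81 and 0.22 in TBI+Zoloft. All TBI+Imipramine arrays were above all TBI arrays, but most of the difference came from replicate 1, and 0.89 ± 0.43 (SE) missed the threshold (adjusted p = 0.157 by limma). Its second probe was also high on TBI+Imipramine replicate 1, at -2.73, and on TBI+Zoloft replicate 3, at -3.33, and lay between -4.95 and -4.23 on the other arrays. The 2 Sham rats differed in the same miRNA, at 1.04 and 1.95 in the authors' table.

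Counted without a test, every TBI+Imipramine array was below every TBI array for 19 of 28 members, against 26% of all kept probes. With each array set to the median of its kept probes, which removes the shift of the whole array, this held for 16 members, against 13.6% of kept probes. On the common-probe scale every TBI+Imipramine array was below all 9 other injured arrays for 9 members, against 7.55% of probes, and with arrays set to their median for 4, against 2.26%. The 28 members include 3 above background on 2 TBI+Imipramine arrays and 11 above background on 1. Those members passed the filter through other groups, and the counts in this paragraph were not split by detection. On the common-probe scale every TBI+Prozac array was below every TBI array for 5 members, against 9.06% of probes, and in TBI+Zoloft for 11, against 24.5%. Set to the array median these counts were 4 and 5, against 9.43% and 11.7%. Of 19 further kept probes of members, none differed in sign from the brightest one in TBI+Imipramine against TBI. On the common-probe scale 7 did in TBI+Prozac and 6 in TBI+Zoloft. For TBI+Imipramine, the second probe was also called for miR-127-3p, miR-154-5p, miR-369-5p, miR-410-3p, miR-381-3p and miR-380-3p. It was not called for miR-341, miR-300-3p, miR-379-5p, miR-434-3p and miR-323-3p. Nor was it for miR-329-3p, miR-487b-3p and miR-495, at -0.09, -0.08 and -0.15.

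**Figure D3:**
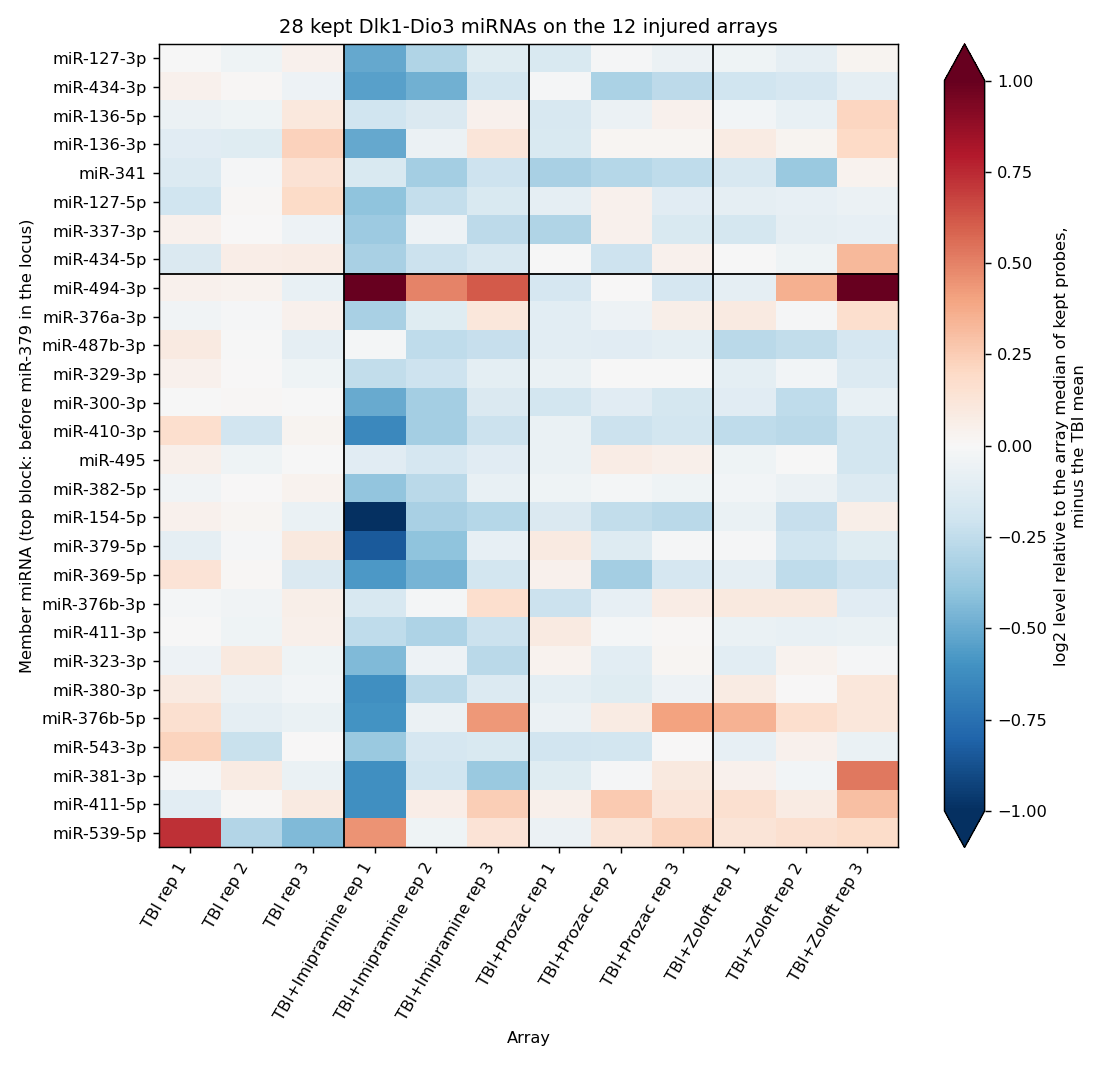
Log2 level of each of the 28 kept members on the 12 injured arrays, relative to the array's median of kept probes and minus the mean of the TBI arrays, with the colour scale ending at 1 and -1 and a line between the members before miR-379 and those from it on. The TBI+Imipramine columns are low for most members, most clearly replicate 1, while miR-494-3p is high on all 3 TBI+Imipramine arrays and on TBI+Zoloft replicate 3.

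The cluster as a whole was summarised on each array as the median of the members minus that of all kept probes, each probe first centred over the injured arrays. It was 0.09, 0.08 and 0.12 in TBI and -0.17, -0.17 and -0.07 in TBI+Imipramine. TBI+Prozac was at 0.05, 0.003 and 0.02, and TBI+Zoloft at 0.03, 0.02 and 0.04. TBI+Imipramine was below all other injured arrays and TBI above them, with both drug groups of serotonin reuptake inhibitors between. In the authors' table TBI+Imipramine was at -0.26, -0.16 and -0.08, but the 2 Sham rats were at 0.19 and -0.09, so the uninjured rats spanned most of the range of the injured groups.

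**Figure D4:**
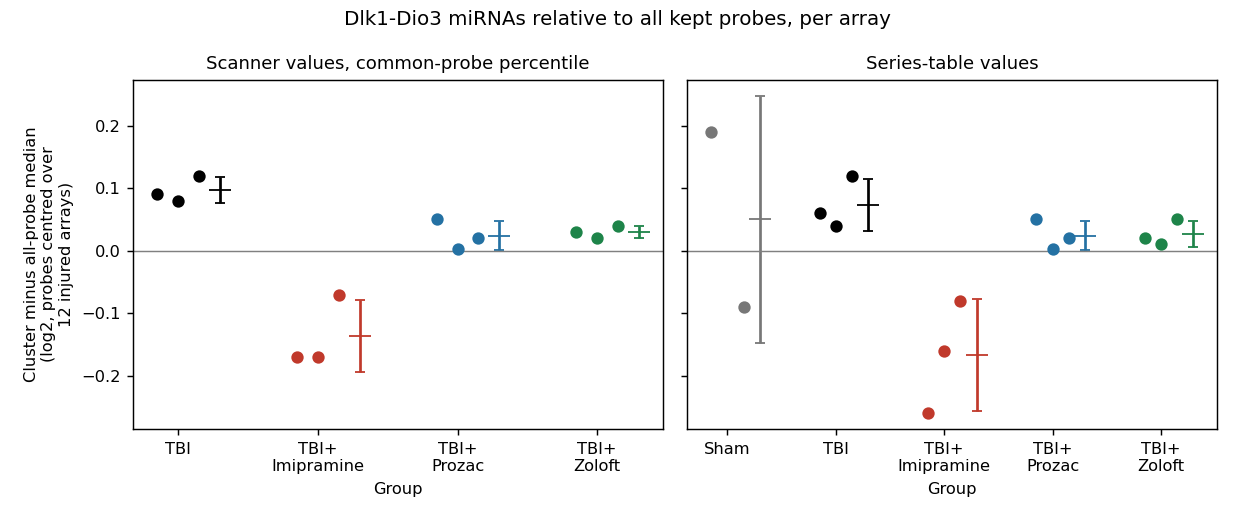
Median of the 28 members minus median of all kept probes on each array (log2), with group mean ± SD, for the scanner values with common-probe scaling (left) and the authors' table (right). TBI+Imipramine lies between -0.17 and -0.07 on the left and between -0.26 and -0.08 on the right, where the 2 Sham rats are at 0.19 and -0.09.

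In TBI+Prozac and TBI+Zoloft no member was called, on either scaling. On the common-probe scale 0% of probes were called in both. The cluster median was -0.098 in TBI+Prozac, beside -0.05 over all probes, and -0.148 in TBI+Zoloft, beside -0.062. At an unadjusted p under 0.05 there were 2 of 47 member probes for TBI+Prozac and 4 for TBI+Zoloft, beside 11 and 35 of all 265 probes. With each array's own percentile 0% of probes were called for TBI+Prozac and 0.755% for TBI+Zoloft, and the medians were 0.315 and 0.320 beside all-probe medians of 0.368 and 0.408. The sign of the cluster in both groups thus turned with the scaling. The methods' t-test called 0 members for TBI+Prozac and 1 for TBI+Zoloft, beside 3.02% and 1.51% of all probes.

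With each array's own percentile the highest differences were 0.53 for miR-411-5p, 0.52 for miR-376b-5p and 0.48 for miR-539-5p in TBI+Prozac, and 0.97 for miR-494-3p, 0.58 for miR-376b-5p and 0.56 for miR-411-5p in TBI+Zoloft, each with an SE of 0.49 and none called. The other values for these groups are on the common-probe scale. miR-487b-3p was at -1.32, -1.42 and -1.33 in TBI and at -1.69, -1.65 and -1.70 in TBI+Zoloft. Its difference of -0.32 ± 0.09 (SE) missed the threshold (adjusted p = 0.266 by limma), although the groups did not overlap. miR-341 was at -3.01, -2.89 and -2.56 in TBI and at -3.12, -3.15 and -3.16 in TBI+Prozac, with a difference of -0.33 ± 0.13 (SE, adjusted p = 0.873 by limma).

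The 3 drug groups were also compared directly. No member was called by the F test of limma on either scaling, where 0% of probes were called. With the own-percentile scaling 17 of 47 member probes had an unadjusted p under 0.05, beside 39 of all 265 probes. With the common-probe scaling these counts were 20 and 38. On slide 2 alone, the cluster median was -0.295 between TBI+Imipramine and TBI+Prozac, beside -0.148 over all probes, and -0.281 between TBI+Imipramine and TBI+Zoloft, beside -0.099. There 0 members were called. On that slide miR-127-3p differed by -0.39 ± 0.13 (SE) from TBI+Prozac and by -0.37 ± 0.12 (SE) from TBI+Zoloft.

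**Figure D5:**
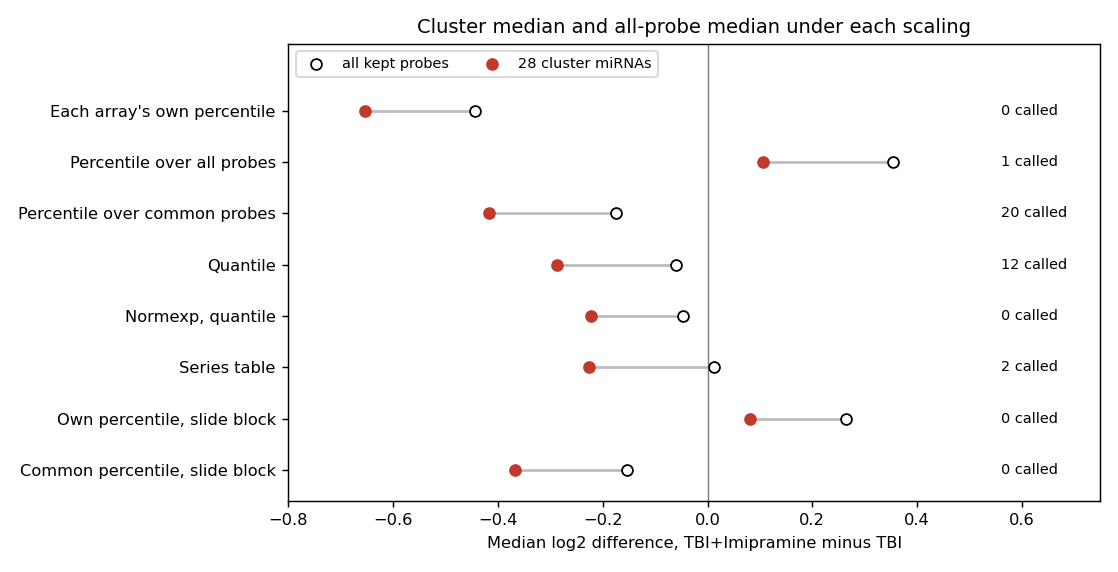
Median log2 difference between TBI+Imipramine and TBI of the 28 members (filled) and of all kept probes (open) under 8 scalings or fits, with the number of members called. The members lie left of all probes in each, while the side of 0 changes with the scaling and the number called ranges from 0 to 20.

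Other miRNAs moved on the same arrays. Of the 6 kept brain-rich miRNAs, miR-128-3p fell by 0.46 and miR-9a-3p fell by 0.34 on the log2 scale in TBI+Imipramine (adjusted p of 0.0499 and 0.0377 by limma), while miR-9a-5p was at 0.24 and not called. The log2 of their summed signal was 4.24, 4.25 and 4.46 in TBI and 4.03, 3.92 and 4.31 in TBI+Imipramine. miR-204-5p, the kept one of 4 miRNAs listed for the choroid plexus, was at -1.88, -1.91 and -0.87 in TBI and at 1.1, 1.57 and -1.85 in TBI+Imipramine. On the gene expression arrays Ttr, a defining transcript of the choroid plexus, was at -0.68, 0.90 and 4.83 in TBI and at 6.63, 6.69 and 0.79 in the TBI+Imipramine rats. All 5 choroid plexus genes listed (Ttr, Kl, Folr1, Kcne2 and Clic6) were higher in TBI+Imipramine replicates 1 and 2 than in the TBI rats. miR-204-5p was at 0.17 on TBI+Prozac replicate 1 and at 0.35 and 0.98 on TBI+Zoloft replicates 1 and 2, whose cluster values were 0.05, 0.03 and 0.02. TBI+Imipramine replicate 3 had a cluster value of -0.07. Its members had a median difference from TBI of -0.270, beside -0.074 over all probes, given as a value of 1 array with no test. The 3 oligodendrocyte miRNAs summed to 1.37, 1.73 and 1.60 in TBI and to 1.5, 1.51 and 1.77 in TBI+Imipramine. miR-451-5p of red blood cells was at -3.20, -3.56 and -3.57 in TBI and at -3.11, -2.45 and -4.76 in TBI+Imipramine. miR-142-3p of leukocytes was at -3.43, -4.16 and -3.64 in TBI and at -3.21, -2.71 and -3.59 in TBI+Imipramine. Its difference of 0.57 was not called (adjusted p = 0.136 by limma). The part of these cell types in the cluster's difference was not tested.

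Against Sham, in the authors' table, no member was called by limma in any of the 4 injured groups. The share of probes called was 2.26% for TBI, 3.77% for TBI+Imipramine, 2.26% for TBI+Prozac and 0.755% for TBI+Zoloft. At an unadjusted p under 0.05 there were 2, 5, 0 and 0 of 47 member probes, beside 25, 30, 10 and 11 of all 265 probes. The methods' t-test, run for TBI, called 1 member, with 2.13% of member probes called beside 7.92% of all probes. The cluster median for TBI was 0.093, beside 0.069 over all probes. miR-154-5p was at -0.11 and -0.31 in Sham and at 0.10, 0.10 and -0.01 in TBI, with a difference of 0.28 ± 0.12 (SE, adjusted p = 0.473 by limma) and no overlap. miR-411-5p and miR-487b-3p followed at 0.27 each, and the lowest differences were -0.34 for miR-539-5p, -0.14 for miR-376b-5p and -0.06 for miR-434-5p, none of them called. The value of miR-411-5p rested on TBI replicate 1, with levels of -0.59, -1.58 and -1.54 in TBI and of -1.44 and -1.57 in Sham. Its scanner values in TBI, on the common-probe scale, were -4.47, -4.36 and -4.12 in the same order. Every TBI array was above both Sham arrays for 6 of 28 members, against 20.4% of all kept probes. TBI+Imipramine was below Sham with a cluster median of -0.154, beside 0.035. miR-127-3p was at 2.74 and 2.52 in Sham and at 2.31, 2.26 and 2.47 in TBI+Imipramine, with a difference of -0.28 ± 0.09 (SE, adjusted p = 0.161 by limma). Every TBI+Imipramine array was below both Sham arrays for 7 members, against 7.92% of kept probes. The medians for TBI+Prozac and TBI+Zoloft were 0.046 and 0.043, beside 0.069 and 0.06.

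In the authors' table, TBI+Imipramine against TBI gave 2 members called lower, miR-127-3p at -0.35 ± 0.07 and miR-300-3p at -0.37 ± 0.08 (SE, adjusted p = 0.0484 by limma for both), where 2.26% of probes were called. Quantile normalization of the scanner values gave 12, against 11.7% of probes.

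The gene expression arrays of the same rats held few probes for the region's own genes. Of 8 such genes, Dlk1 and Dio3 had a named probe, and neither was kept, with Dlk1 above background on 0 and Dio3 on 7 of 14 arrays. Of the Mef2 factors that transcribe the miR-379 to miR-410 group, Mef2d was kept. Its log2 level, relative to each array's 75th percentile of probes above background, was -3.35, -3.16 and -3.13 in TBI and -3.02, -3.01 and -3.09 in TBI+Imipramine, with a difference of 0.17 ± 0.20 (SE, adjusted p = 0.654 by limma), beside an all-probe median of 0.20. The known targets Limk1, Pum2, Sv2a, Creb1 and Bdnf were all kept, and 0 of 5 were called in any comparison, where 16.6% of probes were called for TBI against Sham, 2.85% for TBI+Imipramine, 0.00577% for TBI+Prozac and 1.38% for TBI+Zoloft against TBI. Limk1 and Pum2 were named above for miR-134, above background on no injured array, and Sv2a for miR-485-5p, above background on 3. The members named for these genes were thus not among those called lower. Creb1, a transcription factor of neuronal activity, was at -6.30 and -6.02 in Sham, at -6.01, -5.83 and -5.59 in TBI and at -5.51, -5.34 and -5.51 in TBI+Imipramine. The difference between TBI+Imipramine and TBI was 0.35 ± 0.15 (SE, adjusted p = 0.218 by limma), beside the all-probe median of 0.20. It was 0.29 with slide as a block, 0.13 with the authors' table and -0.004 with quantile normalization. The Creb1 probe was above background on 11 of 14 arrays. Bdnf, the growth factor, was at -3.74, -3.73 and -3.26 in TBI and at -3.15, -3.14 and -3.60 in TBI+Imipramine, and the groups overlapped. Of 5 markers of hippocampal neurons, Neurod6, Wfs1, Grik4 and Zbtb20 were above background on all 14 arrays, and Prox1 of the dentate gyrus was above background on none.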

How the data were processed

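Rat hippocampal RNA was measured on 14 Agilent miRNA and 14 gene expression arrays of 1 colour. The authors' scanner files, made with Feature Extraction 11.5.1.1 per the file headers, held a background-subtracted intensity and above-background flags for each spot, not normalized between arrays. The deposited series table held each probe's linear intensity, which the methods describe as divided by a 75th percentile of each array. Set against the scanner values, this held within 0.1 log2 for all but 0 to 2 of the 168 probes above background on all injured arrays, but not for up to 57 of 265 kept probes; how the authors treated dim probes is not given in the sources used here. Other deposited flags of each spot (outlier, saturation, control type) were used as given, and the above-background flags set detection.

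Spots were averaged by probe, divided by each array's 75th percentile of probes above background, floored and log2 transformed. A member was described by its brightest probe. Injured groups were compared on scanner values, and Sham comparisons on the series table, with limma 3.58.1 in R 4.3.3 and Benjamini-Hochberg adjustment over all kept probes. Scripts were tested on simulated data. The number of arrays limits the precision. The methods' t-test was an unadjusted p under 0.05 with at least a 1.2-fold difference.

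Members, lists and comparisons were chosen with earlier results of these data known. The members named were those called, the 8 brightest, and the 3 highest and 3 lowest differences of each comparison, with those at the edge of detection; further members were described because they were called under common-probe scaling. Alternatives were other scalings, background correction, filters, slide and replicate blocks and leaving out each array; combinations of common-probe scaling with blocks, left-out arrays or single slides were chosen after seeing the data. Sequences came from RefSeq (GRCr8).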

Additional observations from a re-analysis of the deposited data

How the results depend on the processing

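The number of members called in TBI+Imipramine against TBI was 0 with each array's own percentile, beside 0.377% of all probes. It was 20 with the common-probe percentile (21.1%), 12 with quantile normalization (11.7%) and 2 with the authors' table (2.26%), all called lower. With the percentile over all probes it was 1 (3.4%), and this member was called higher. The cause of these differences was not tested. With the common-probe percentile the number of members called ranged from 0 to 25 when 1 array was left out. It was 15, 14 and 0 without TBI replicates 1, 2 and 3, beside 12.8%, 11.7% and 0% of all probes. It was 13, 0 and 25 without TBI+Imipramine replicates 1, 2 and 3, beside 14%, 0% and 37.4%. With slide as a block on the common-probe scale it was 0, beside 0%. The median of the cluster was 0.106 with the percentile over all probes and 0.000 with no filter on dim probes, where most values are at the floor. With slide as a block it was 0.082 on each array's own percentile, beside 0.265 over all probes, and -0.368 on the common-probe percentile, beside -0.153. Relative to all probes it was below 0 in 28 of 29 settings, all but no filter. So it was for TBI+Prozac (29 of 30) and TBI+Zoloft (27 of 28). For TBI+Zoloft against TBI, 1 member was called with the percentile over all probes (3.02%) and 1 by the methods' t-test (1.51%). The cluster median for TBI+Zoloft was -0.194 with the total gene signal, 1.086 with slide as a block and -0.193 without TBI replicate 2 on the common-probe scale. The test among drugs called 0 to 24 members when 1 array was left out. Without TBI+Imipramine replicate 2 it called 24 (73.2%). On the common-probe scale without TBI+Imipramine replicate 3 it called 12 (10.6%).

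Against Sham, TBI had 3 members called with no filter and 1 by the methods' t-test, and TBI+Imipramine had 3 with quantile normalization. The shares of all probes called were 2.44%, 7.92% and 2.26% in the same order. The median for TBI was -0.013 with quantile normalization, 0.226 with no filter and -0.020 with columns centred on their median, and ranged from -0.030 to 0.240 when 1 array was left out. For TBI+Imipramine it was -0.366, 0.000 and -0.275 under the same settings and -0.285 to -0.016 by array. For TBI+Prozac it was -0.094 with centred columns and -0.070 to 0.185 by array. For TBI+Zoloft it was -0.076 with quantile normalization, -0.056 with centred columns and -0.076 to 0.175 by array. Both ends of these ranges came from leaving out a Sham array. On the gene expression arrays, TBI against Sham called 1 listed gene with quantile normalization (Creb1, adjusted p = 0.0445 by limma) and 1 with normexp (Limk1, adjusted p = 0.029 by limma).

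Same-numbered rats did not all deviate together, so replicate numbers were not taken as pairs. With the replicate block the own-percentile fit again called 0 members with a median of -0.653 for TBI+Imipramine against TBI. The common-probe fit called 17, beside 15.8% of all probes. The block changed no other count of members called. Over all probes it gave 1 call for TBI+Zoloft against TBI, where 2 were called without it, and 7, 5 and 0 against Sham for TBI+Imipramine, TBI+Prozac and TBI+Zoloft, where 10, 6 and 2 were called. Members near background and the small number of arrays limit what can be detected.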

Other observations

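In the authors' table miR-337-3p was at 0.78 on TBI+Imipramine replicate 3, against -1.70 and -1.66 on the other 2 arrays of that group, while the scanner values of the same probe on the common-probe scale were -4.56, -4.70 and -4.49 in the same order.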
